A study of Gallus gallus with 3 samples.

Results

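The genes described here are 11 named autosomal genes of the chicken (Gallus gallus) with ample reads in cultured primordial germ cells (PGCs) and almost none in embryonic stem cells (ESCs). They were chosen by their own counts, namely at least 200 reads in each PGC library and at most 3 reads in the ESC library, with a gene symbol in the authors' table and a position outside chromosomes Z and W and the mitochondrial genome. Of 19152 genes in the count table, 7871 autosomal genes had at least 200 reads in both PGC libraries, and 31 of these (0.394%) had at most 3 ESC reads. Of the 6807 such genes with a symbol, 14 (0.206%) had so few ESC reads. Among the 31 genes, 17 had no symbol and 3 (MOV10L1, SMC1B and TDRD5) were left out by name as genes of the piRNA and meiotic machinery, which leaves the 11. A further 4 genes of the excluded chromosomes had such counts.

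RNA sequencing was performed on 2 libraries of PGCs (replicates 2 and 3) and 1 library of ESCs (replicate 2), both cultured cell types with no treatment named in the labels. PGCs are the embryonic precursors of eggs and sperm, which in birds travel through the bloodstream to the gonads, and the study set them against ESCs as cultured descendants of early embryonic somatic cells. The labels give no strain, sex, stage or age for these cultures. Total counts assigned to genes were between 19754278 and 20568106 per library, so the floor of 3 reads, the limit that a count of 0 allows, corresponded to 0.169 CPM (read counts scaled to library size and composition) in the ESC library. The count table also holds a column headed replicate 1 for each cell type, but these matched no sample label and were not analysed here, so the low ESC counts rest on a single library. Its spread is unknown, and PGC against ESC differences were not tested. The PGC against ESC values of the 11 genes chose them and are therefore a description. In bulk RNA, fewer cells that express a gene and less RNA per cell cannot be told apart.

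Germ cell identity was checked on marker genes. Of 11 listed PGC markers 8 were matched, and DAZL (45865 and 47278 reads in PGCs, 16 in ESCs), DDX4 (19644 and 24278 in PGCs, 352 in ESCs) and KIT (3851 and 2953 in PGCs, 111 in ESCs) were at least 2-fold higher in both PGC libraries, with 1 of the 8 lower. All 8 matched ESC markers were detected in every library. Of these, 0 were higher and 3 lower in PGCs, and the pluripotency gene NANOG had 4455 and 6131 reads in PGCs and 4284 in ESCs. Over 14489 genes with at least 10 reads in a library, 3124 (21.6%) were higher and 2293 (15.8%) lower by 2-fold or more in each PGC library relative to the ESC library. All 11 genes were higher by this measure, as their selection required. Without a composition factor (total counts) the median log2 ratio of all genes became 0.34 in place of 0.03, and 3871 genes were higher and 1644 lower.

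Germline genes are commonly silent in somatic cells and encode meiotic, RNA-binding and small-RNA proteins. The 11 genes are mostly of other kinds, but the selection left out such genes by name, among them MOV10L1, SMC1B and TDRD5. Its limit of 3 ESC reads also left out abundant germline genes such as STK31, with 36 ESC reads. SCN1A and KCNH7 encode pore-forming subunits of voltage-gated channels, which set the excitability of neurons. SYT10 encodes a synaptotagmin, one of a family of calcium sensors of vesicle release. CTNNA3, SGCZ and DOCK2 act between the membrane and the actin cytoskeleton. GPR149 is an orphan receptor, MUC6 a secreted gel-forming mucin, NLRC5 an immune regulator, ZNF804A a zinc finger protein, and MEIOC a meiotic factor. MEIOC was the only one of the 11 found in the lists of germline genes compiled here.

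GPR149, a G protein-coupled receptor without a known ligand that is expressed in oocytes of the mouse, was the most abundant of the 11. It had 2383 and 2466 reads in PGC replicates 2 and 3, against 2 reads in the ESC library. Per length, this was 52.1 and 50.1 TPM (reads per exonic length, scaled to the same sum in each library) in PGCs, against 0.0371 TPM in the ESC library. Pooled over the PGC libraries its level was 996-fold that of the ESC library, with a 95% exact counting interval of 276 to 8228. This interval is for counting error only. It takes no account of the choice of the gene by its low ESC count, which favours a high ratio. The gene (ENSGALG00000010337, chromosome 9, 23262167 to 23283365, galGal5) lies 3.59 kb from DHX36, a helicase gene with 4544 and 6022 reads in PGCs and 4854 reads in ESCs. Thus the PGC libraries were alike for GPR149, and DHX36 was at a similar level in all libraries. The adjacent gene on the other side, MME, was not, with 200 and 725 reads in PGCs and 154 in ESCs.

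CTNNA3 was second in mean abundance but far apart between the PGC libraries. It encodes alpha-T-catenin, which links cadherin junctions to actin and is known from the intercalated discs of heart muscle. It had 3232 and 625 reads in PGC replicates 2 and 3, against 3 reads in the ESC library, and 74.2 and 13.3 TPM in PGCs, against 0.0584 TPM in ESCs. Both PGC libraries stood far above the ESC library, but replicate 2 was 4.81-fold above replicate 3 on the CPM scale. The gene (ENSGALG00000002845, chromosome 6, 6694536 to 7131100) had the widest span of the 11, with 437 kb. LRRTM3, which lies on the other strand within this span and shares 0 exon bases with it, had 1 and 11 reads in PGCs and 1 read in ESCs.

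The ion channel genes SCN1A and KCNH7 lie on chromosome 7. SCN1A (ENSGALG00000010943, 19691055 to 19747676), the sodium channel Nav1.1, had 939 and 401 reads in PGCs, against 1 read in the ESC library. This was 15.8 and 6.25 TPM in PGCs, against 0.0142 TPM in ESCs. KCNH7 (ENSGALG00000038543, 21044195 to 21149299), a potassium channel of the ether-a-go-go-related group, had 673 and 589 reads in PGCs, against 0 reads in the ESC library. Its level was 15.8 and 12.8 TPM in PGCs. Its mean CPM over the PGC libraries was 172.6-fold the floor of 3 reads in the ESC library. KCNH7 thus varied little between the PGC libraries, whereas SCN1A was 2.18-fold higher in replicate 2.

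SYT10 (ENSGALG00000012911, chromosome 1, 58696926 to 58729393) is known in mouse neurons as the calcium sensor for secretion of insulin-like growth factor 1. It had 201 and 236 reads in PGCs, against 3 reads in the ESC library, and thus lies at the edge of the selection. ZNF804A (ENSGALG00000023886, chromosome 7, 1803327 to 1832501), a zinc finger gene studied in humans for its association with schizophrenia, had 387 and 219 reads in PGCs, against 1 read in ESCs. Per length these genes were close in PGCs, with 9.55 and 10.4 TPM for SYT10 and 10.8 and 5.69 TPM for ZNF804A. Since these 4 genes are best known from neurons, neural markers were examined beside them. Of 9 listed neural markers 6 were matched, with a summed level of 968 and 945 CPM in PGCs and 139 CPM in ESCs. Most of the sum in PGCs was ELAVL4 (496 and 461 CPM) and NCAM1 (430 and 386 CPM). ELAVL4 (11118 and 9596 reads in PGCs, 311 in ESCs) and NCAM1 (9627 and 8048 in PGCs, 1226 in ESCs) were at least 2-fold higher in both PGC libraries, whereas the neurogenic factor NEUROG2 had 7 and 8 reads in PGCs and 38 in ESCs, and PAX6 had 19 and 18 reads in PGCs and 8 in ESCs. STMN2, with 898 and 2002 reads in PGCs and 879 in ESCs, was not called either way. No matched neural marker was at 0 in a library, and the part of these markers in the channel gene values was not tested.

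SGCZ and DOCK2 had unlike stability in PGCs. SGCZ (ENSGALG00000013684, chromosome 4, 64476013 to 64623112), a sarcoglycan of the dystrophin-associated complex, had 259 and 202 reads in PGCs, against 0 reads in ESCs. With the shortest exonic length of the 11, 900 bases, this was 29.3 and 21.2 TPM in PGCs, and only GPR149 and CTNNA3 had a higher mean TPM among the 11. The mean CPM of SGCZ over the PGC libraries was 62.9-fold the ESC floor. DOCK2 (ENSGALG00000002080, chromosome 13, 3962515 to 4122445), an activator of the GTPase Rac that is needed for lymphocyte migration in mammals, had 1756 and 512 reads in PGCs, against 2 reads in ESCs. It had 32.4 and 8.78 TPM in PGCs, against 0.0313 TPM in ESCs, and was 3.19-fold higher in PGC replicate 2 than in replicate 3.

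NLRC5 (ENSGALG00000001256, chromosome 11, 676354 to 711376), a transactivator of MHC class I genes in mammals, had 400 and 203 reads in PGCs, against 3 reads in ESCs. Its 5.78 and 2.72 TPM in PGCs made it the lowest of the 11 per length. DOCK2 and NLRC5 are best known from blood cells, so leukocyte markers are given beside them. Of 8 listed leukocyte markers 7 were matched, with a summed level of 22.95 and 19.8 CPM in PGCs and 38.2 CPM in ESCs. The pan-leukocyte marker PTPRC had 291 and 271 reads in PGCs and 61 in ESCs, and LYZ 11 and 9 reads in PGCs and 0 in ESCs, both at least 2-fold higher in both PGC libraries. CD74, CD3E and MARCO were at least 2-fold lower, with 158 and 87, 23 and 23, and 4 and 1 reads in PGCs, against 360, 225 and 17 in ESCs. The myeloid factor SPI1 had 5 and 0 reads in PGCs and 6 in ESCs. The part of leukocyte RNA in either gene was not tested.

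MUC6 (ENSGALG00000040530, chromosome 5, 15061327 to 15098793), whose product is known in the hen as a component of the ovomucin of egg white, had 461 and 228 reads in PGCs, against 2 reads in ESCs. Its exonic length of 7758 bases was the longest of the 11, so that these reads amounted to 6.04 and 2.77 TPM in PGCs. MEIOC (ENSGALG00000045889, chromosome 27, 1375764 to 1389211), which in the mouse keeps germ cells in meiotic prophase, had 342 and 351 reads in PGCs, against 1 read in the ESC library. It had 12.9 and 12.3 TPM in PGCs, the smallest SD in TPM among the 11 (0.426, n = 2). Such an SD depends on the level, and by log2 difference KCNH7 (0.09) was closer between the PGC libraries than MEIOC (−0.14). MUC6 and MEIOC thus differed in stability as well as in level.

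**Figure D1:**
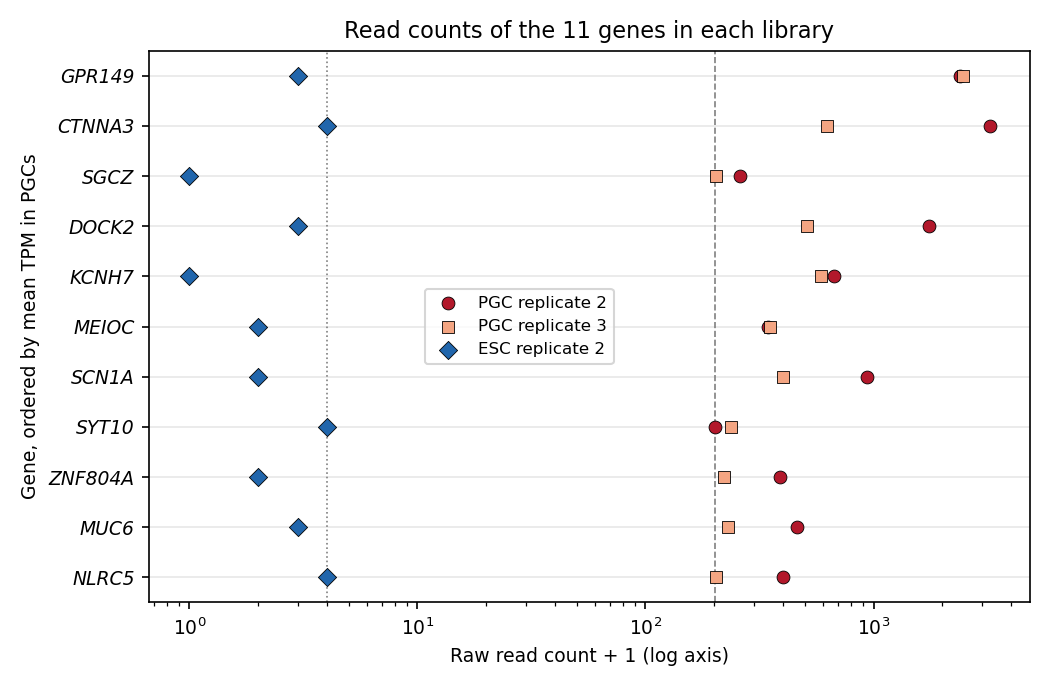
Raw read counts plus 1 (log axis) of the 11 genes in PGC replicate 2 (circles), PGC replicate 3 (squares) and ESC replicate 2 (diamonds), ordered by mean TPM in PGCs. The dashed and dotted lines mark the selection thresholds of 200 and 3 reads. GPR149 is alike in both PGC libraries (2383 and 2466 reads), whereas CTNNA3 is not (3232 and 625 reads).

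In PGCs the 11 genes were mostly low among the named autosomal genes that met the same PGC threshold. Their mean TPM over the PGC libraries lay between 4.25 (NLRC5) and 51.1 (GPR149) with a median of 12.6, and 10 of the 11 were below the median of 48.4 TPM over the 6807 named autosomal genes with at least 200 reads in both PGC libraries. That threshold removes weakly expressed genes. Among all 14489 genes with at least 10 reads in a library, the 11 lay between percentile 24.8 (NLRC5) and 72.7 (GPR149) of mean TPM in PGCs. On the CPM scale the median of the 11 was 16.1, against 54.1 for the 6807 genes. Their median fold over the floor of 3 ESC reads was 95.1. In order of mean TPM the genes were GPR149, CTNNA3, SGCZ, DOCK2, KCNH7, MEIOC, SCN1A, SYT10, ZNF804A, MUC6 and NLRC5. The position of CTNNA3 (43.8 ± 43.0 TPM, SD, n = 2) is not set apart from DOCK2 (20.6 ± 16.7) or SGCZ (25.2 ± 5.70) beyond its spread, and the values of MUC6 (4.41 ± 2.31) and NLRC5 (4.25 ± 2.16) overlap. GPR149 (51.1 ± 1.44 TPM) was above SGCZ in both PGC libraries, but below CTNNA3 in replicate 2.

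The selection has an edge, and the values on either side of it are close. Just inside were SYT10 (201 reads in PGC replicate 2), SGCZ (202 in replicate 3) and NLRC5 (203 in replicate 3). Just outside were NMUR2 with 195 and 204 reads in PGCs and 3 in ESCs, HHIP with 191 and 224 in PGCs and 1 in ESCs, and TREM-B1 with 242 and 188 in PGCs and 0 in ESCs. On the side of the ESC limit, the nearest genes had 5 ESC reads, among them AGBL4 with 490 and 449 reads in PGCs and WDFY4 with 276 and 230. With thresholds of 100 or 400 PGC reads the number of genes became 18 or 5, and with an ESC limit of 0 or 10 reads it became 2 or 25. When counts were first scaled to equal effective library size, 7 of the 11 still met the thresholds, and CTNNA3, SGCZ, SYT10 and NLRC5 did not.

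The selection required both PGC libraries to be high but did not compare them with each other. Of the 11 genes, 8 were higher in replicate 2 and 3 (GPR149, MEIOC and SYT10) in replicate 3, while 52.2% of autosomal genes in the same range of mean CPM were higher in replicate 2. With total counts MEIOC changed sign, to 0.01 on the log2 scale, and MUC6 and NLRC5 joined the genes at least 2-fold apart. CTNNA3, DOCK2 and SCN1A were at least 2-fold higher in replicate 2, 3 of 11, whereas 0.508% of the 7871 autosomal genes with at least 200 reads in both PGC libraries were, and 1.47% of those genes were at least 2-fold apart in either direction. Among genes of the same range of mean CPM, the share at least 2-fold higher in replicate 2 was 0.641% of 5928. By the log2 difference of replicate 2 over replicate 3, CTNNA3 (2.26) ranked 1 and DOCK2 (1.67) ranked 4 among the 7871 genes, and SCN1A (1.12) ranked 25. MUC6 (0.91) and NLRC5 (0.87) ranked 68 and 78. By contrast, 5 of the 11, KCNH7 (0.09), MEIOC (−0.14), GPR149 (−0.15), SGCZ (0.25) and SYT10 (−0.33), differed by less than 0.349, the SD of this difference over the 6807 named genes. The share of all genes below this SD was not computed. By size in either direction, with rank 1 the largest, they ranked 6050, 5046, 4820, 3253 and 2275 among the 7871 genes. Differences as small as theirs were thus common. The median log2 difference was 0.71 over the 11 genes and −0.02 over the 6807. With 1 library on each side the difference between PGC cultures was not tested. The study's methods name alternative sequencing instruments, providers and read lengths for its RNA libraries. Which of them each library had was not examined here, and their part in the differences between libraries was not tested. Library depth was similar in both PGC libraries, but markers also differed between them. The summed level of the ESC markers was 1099 CPM in replicate 2 and 2023 CPM in replicate 3, that of the PGC markers 3641 and 4485 CPM, and that of the fibroblast markers 629 and 736 CPM. On the CPM scale every matched ESC marker except SOX2, and every matched PGC marker except KIT, was lower in replicate 2. Fibroblast markers went both ways. SALL4 had 2650 reads in replicate 2 and 7352 in replicate 3, LIN28A 70 and 334, TFAP2C 249 and 601, and COL1A2 1150 and 6813. In the same lists, COL3A1 had 12768 reads in replicate 2 and 8382 in replicate 3, KIT 3851 and 2953, and SOX2 58 and 34. The former were thus lower and the latter higher in replicate 2, where CTNNA3, DOCK2 and SCN1A were higher. The part of these markers in the differences of the 11 genes was not tested.

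**Figure D2:**
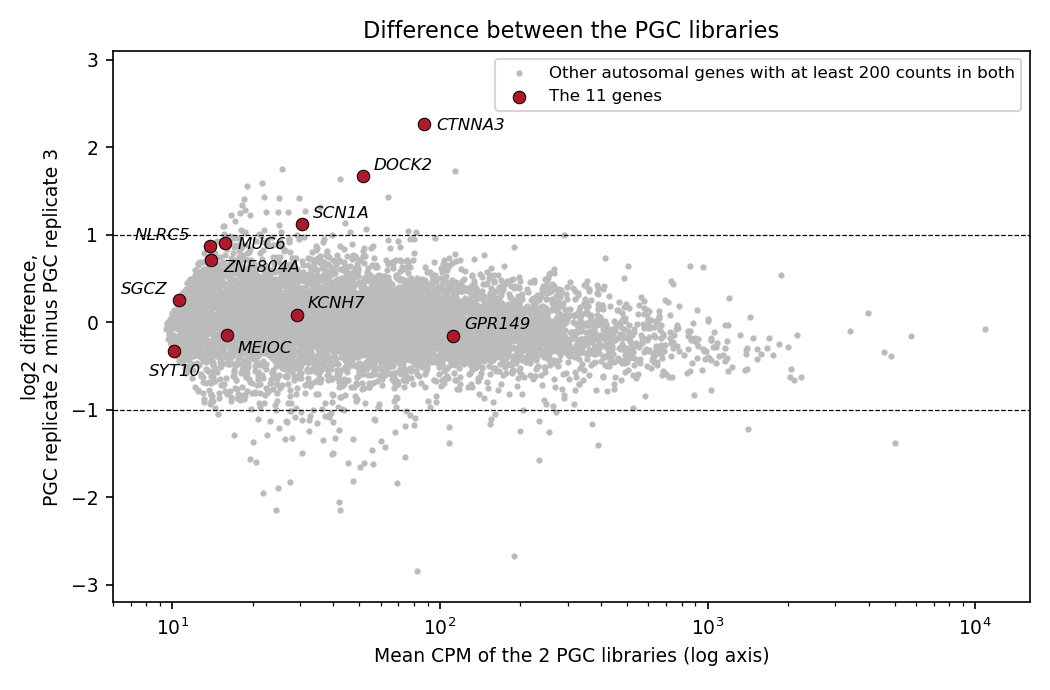
Log2 difference of PGC replicate 2 minus PGC replicate 3 against the mean CPM of these libraries (log axis), for 7871 autosomal genes with at least 200 reads in both (grey) and the 11 genes (red). Dashed lines mark a 2-fold difference. CTNNA3 is at the top of all genes with 2.26, and KCNH7, MEIOC and GPR149 lie near 0.

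Genes of the same families were then compared, to see whether relatives of the 11 were also high in PGCs. These family lists were compiled after the members were known, by symbol, and the counts leave out the 11 genes themselves. A shared symbol does not by itself make genes close relatives. Over all genes 21.6% were higher and 15.8% lower. The list held 8 other genes of voltage-gated sodium channel subunits with at least 10 reads in a library. Of these, 5 were at least 2-fold higher in both PGC libraries and 1 was lower. Among the higher genes, SCN9A, SCN2A and SCN3A lie within 500 kb of SCN1A and are counted again among its neighbours below. SCN9A had 1069 and 528 reads in PGCs and 51 in ESCs, SCN11A 209 and 151 in PGCs and 14 in ESCs, and SCN2A 370 and 159 in PGCs and 35 in ESCs. SCN8A went the other way, with 46 and 39 reads in PGCs and 156 in ESCs. Thus SCN1A had fewer PGC reads than SCN9A in both libraries, and its single ESC read was matched only by SCN3A (27 and 6 reads in PGCs, 1 in ESCs) among the tested sodium channels. Among 50 other entries with a KCN (potassium channel) symbol and at least 10 reads, 16 were higher and 15 lower. KCND2 is among them under more than 1 gene identifier. Of the 2 other KCNH genes tested, KCNH5 (42 and 27 reads in PGCs, 4 in ESCs) was at least 2-fold higher and KCNH6 (38 and 41 in PGCs, 58 in ESCs) was within 2-fold. Of 13 calcium channel genes tested, 5 were higher and 2 lower.

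Of 11 other synaptotagmin genes tested, 0 were at least 2-fold higher in both PGC libraries, SYT2, SYT8 and SYT13 were lower, and 8 were not called either way. With total counts 1 was higher and 3 were lower. SYT11 had the most PGC reads of the family, with 1617 and 1799 in PGCs and 896 in ESCs. SYT13 had 7 and 37 reads in PGCs, against 1155 in ESCs. Of 9 listed genes of the vesicle release machinery 5 were matched, with 2000 and 2074 reads together in PGCs and 1020 in ESCs. Of the 4 tested, 1 was higher and 1 lower. The SNARE gene SNAP25, too low to be tested, had 7 reads in each PGC library and 5 in ESCs.

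The alpha-catenin genes were arranged in opposite directions. CTNNA1, the widely expressed form, had 3951 and 4929 reads in PGCs, against 9527 in ESCs, and CTNNA2, the neural form, had 1974 and 1715 in PGCs, against 358 in ESCs. CTNNA1 was at least 2-fold lower and CTNNA2 at least 2-fold higher in both PGC libraries, although with total counts 0 of the 5 other catenins were lower. Of 7 genes of the cadherin junction, 0 were higher and 2 lower, namely CDH1 (298 and 500 reads in PGCs, 8272 in ESCs) and JUP (682 and 955 in PGCs, 3262 in ESCs). CDH2 had 4973 and 3836 reads in PGCs and 3989 in ESCs. The desmosomal gene PKP2, whose product binds alpha-T-catenin, had 607 and 130 reads in PGCs and 115 in ESCs, so that it too was higher in PGC replicate 2 than in replicate 3.

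Of the 4 other sarcoglycans, SGCE (885 and 761 reads in PGCs, 198 in ESCs) and SGCB (705 and 509 in PGCs, 189 in ESCs) were at least 2-fold higher and 0 were lower in both PGC libraries. Of 6 other genes of the dystrophin complex tested, DTNA was higher and 3 were lower (2 higher and 3 lower with total counts), among them the dystroglycan gene DAG1 with 752 and 776 reads in PGCs and 1884 in ESCs. Among 6 other DOCK genes, DOCK3 (2490 and 1761 reads in PGCs, 30 in ESCs) and DOCK10 (602 and 1420 in PGCs, 91 in ESCs) were higher, and DOCK1 (778 and 1211 in PGCs, 3181 in ESCs) and DOCK11 were lower. The DOCK2 cofactor gene ELMO1 had 770 and 1318 reads in PGCs and 770 in ESCs, and RAC2, the Rac gene of blood cells, had 0 and 1 reads in PGCs and 12 in ESCs.

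Among 3 relatives of NLRC5, NLRC3 (36 and 34 reads in PGCs, 5 in ESCs) was at least 2-fold higher in both PGC libraries, as was NLRPL (749 and 590 in PGCs, 243 in ESCs), and NLRX1 was lower (72 and 88 in PGCs, 169 in ESCs), though not with total counts. Of 9 genes of the MHC class I pathway, 4 were higher: TAP1 (69 and 36 reads in PGCs, 4 in ESCs), TAP2 (99 and 59 in PGCs, 17 in ESCs), BF1 (181 and 209 in PGCs, 64 in ESCs) and BF2 (225 and 212 in PGCs, 65 in ESCs). B2M, the shared light chain, had 1390 and 1307 reads in PGCs and 865 in ESCs. IRF1, an interferon-induced factor, was lower with 9 and 13 reads in PGCs and 49 in ESCs.

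ZNF804B, the only relative of ZNF804A in the table, had 25 and 9 reads in PGCs and 0 in ESCs. Among 31 other genes with a GPR symbol tested, 9 were higher and 3 lower, and with total counts 15 and 3. These genes share a symbol prefix and are not thereby relatives of GPR149. Among them, GPR39 (1864 and 1365 reads in PGCs, 356 in ESCs) and GPR89B (1991 and 1712 in PGCs, 543 in ESCs) were higher. Their PGC reads were fewer than those of GPR149 in both libraries. Their ESC reads were many more, but GPR149 was chosen for its few ESC reads. In the other direction, GPR182 had 0 reads in both PGC libraries and 54 in ESCs.

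**Figure D3:**
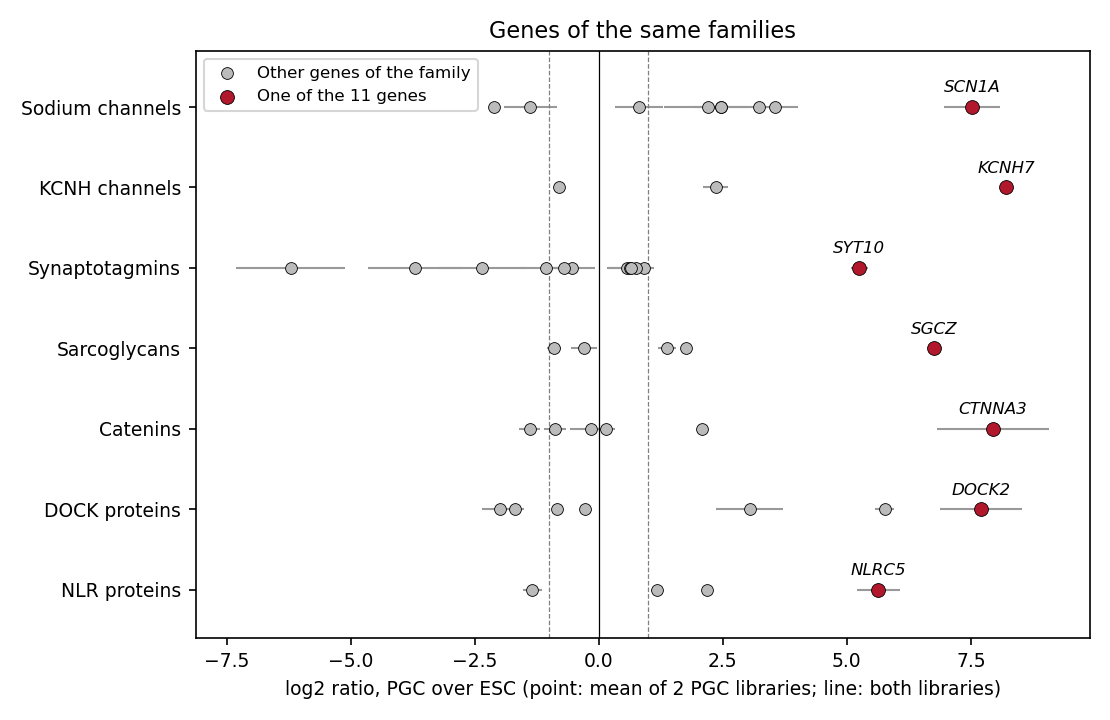
Log2 ratio of PGC over ESC for genes with at least 10 reads in a library in 7 families that hold one of the 11 genes (red) and its relatives (grey). Points are the mean of the ratios of both PGC libraries and lines join the ratios. Ratios of the 11 genes rest on 0 to 3 ESC reads and thus depend on the prior count of 2. Of the genes in grey, 0 of 11 synaptotagmins and 5 of 8 sodium channel genes are at least 2-fold higher in both PGC libraries.

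Beyond these families, MEIOC was set beside other meiotic genes. Of 60 listed genes of meiosis and recombination 31 were matched. Without MEIOC, 14 of 30 were at least 2-fold higher and 0 lower, with a median log2 ratio of 1.10 against 0.03 over all genes. The meiotic entry gene STRA8 had 594 and 368 reads in PGCs and 9 in ESCs, REC114, needed for DNA breaks, had 264 and 77 in PGCs and 1 in ESCs, and MEI1 had 2106 and 1268 in PGCs and 44 in ESCs. SPO11, which cuts DNA in meiosis, had 38 and 26 reads in PGCs and 61 in ESCs. RBM46, an RNA-binding partner of MEIOC in the mouse, had 2370 and 1142 reads in PGCs and 256 in ESCs. MEIOC was the one gene of this list with at least 200 PGC reads in both libraries and at most 3 ESC reads, the counts by which it was chosen. SMC1B, which had such counts and was left out by name, was not on this list.

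The other germline lists held 0 of the 11 genes. The selection itself bears on this, since piRNA and meiotic genes such as MOV10L1, SMC1B and TDRD5 had been left out of it by name. Of 24 tested genes of the piRNA pathway, germ granules and RNA regulation 14 were at least 2-fold higher and 1 lower, and of 43 tested oocyte and spermatogenic genes 27 were higher and 2 lower (33 and 2 with total counts). STK31, a germ granule kinase gene, had 11610 and 6507 reads in PGCs and 36 in ESCs, and FKBP6, a piRNA pathway chaperone gene, had 2218 and 1809 in PGCs and 12 in ESCs. Each thus kept more than 3 ESC reads. GPR149 was the only one of the 11 in the list of receptors, ligands and adhesion genes, of which 21 of 73 others were higher and 30 lower (24 and 24 with total counts). Of 59 tested genes of the list of transcription factors and chromatin, 15 were higher and 19 lower (19 and 16 with total counts).

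The 11 genes lay on 9 chromosomes, with 3 on chromosome 7 and 1 on each of the other 8. They tended to span long stretches, with a median of 37.5 kb (13.4 to 437 kb) against 17.0 kb over the 6807 named autosomal genes with at least 200 PGC reads, and 10 of the 11 were above that median. Their exonic length had a median of 4429 bases (900 to 7758) against 2397 bases, and 9 of the 11 were above it. The 6807 genes were not matched to the 11 for level (median 54.1 against 16.1 CPM). The part of the read threshold in these lengths was not tested. None of the 11 shared exon bases with another gene of the table.

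The neighbourhood of each gene was examined, which the selection had not used. For 10 of the 11 at least 1 adjacent gene had 10 reads in a library, and for 6 of these an adjacent gene was at least 2-fold higher in both PGC libraries, against 31.2% of 16515 autosomal genes. Counted singly, 21.6% of all genes with 10 reads were higher and 15.8% lower. Of the 16 adjacent genes with 10 reads, 7 were higher and 0 lower. They were DNAJC12 beside CTNNA3 (3483 and 2242 reads in PGCs, 234 in ESCs), IFIH1 beside KCNH7, SCN9A beside SCN1A, CPNE2 beside NLRC5 (1413 and 1304 in PGCs, 361 in ESCs), an unnamed gene beside MUC6 and 2 unnamed genes with few reads beside ZNF804A. In contrast, the genes next to DOCK2, MEIOC and GPR149 were below 10 reads or within 2-fold in at least 1 PGC library. MME beside GPR149, for example, had 200 and 725 reads in PGCs and 154 in ESCs. Within 500 kb of the 11 genes, 47 of 171 tested genes were higher and 30 lower, which at 27.5% is near the 21.6% of all genes.

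By gene, the share of higher neighbours within 500 kb ran from 0 of 2 tested genes at DOCK2 and 0 of 7 at SYT10 to 2 of 3 at SGCZ and 7 of 10 at MUC6, where 0 were lower. MUC6 is described further because it had the highest share, and so was chosen after its values were seen. Among them, TOLLIP had 17257 and 13714 reads in PGCs and 2018 in ESCs, and an unnamed gene (ENSGALG00000038950) 64.8 kb away had 1331 and 828 in PGCs and 26 in ESCs. SCN1A and KCNH7 are 1.30 Mb apart. From SCN9A to DPP4, the stretch that holds both, 8 of 16 other tested genes were higher and 2 lower. The higher genes were the sodium channel genes SCN9A, SCN2A and SCN3A, SLC38A11 (945 and 502 reads in PGCs, 78 in ESCs), and, past KCNH7, IFIH1 (639 and 300 in PGCs, 29 in ESCs), FAP (540 and 132 in PGCs, 18 in ESCs), GCG (13 and 7 in PGCs, 1 in ESCs) and DPP4 (369 and 281 in PGCs, 55 in ESCs). GALNT3 (491 and 251 reads in PGCs, 2116 in ESCs) and COBLL1 (497 and 405 in PGCs, 1937 in ESCs) were lower. This stretch was delimited after its values had been seen.

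**Figure D4:**
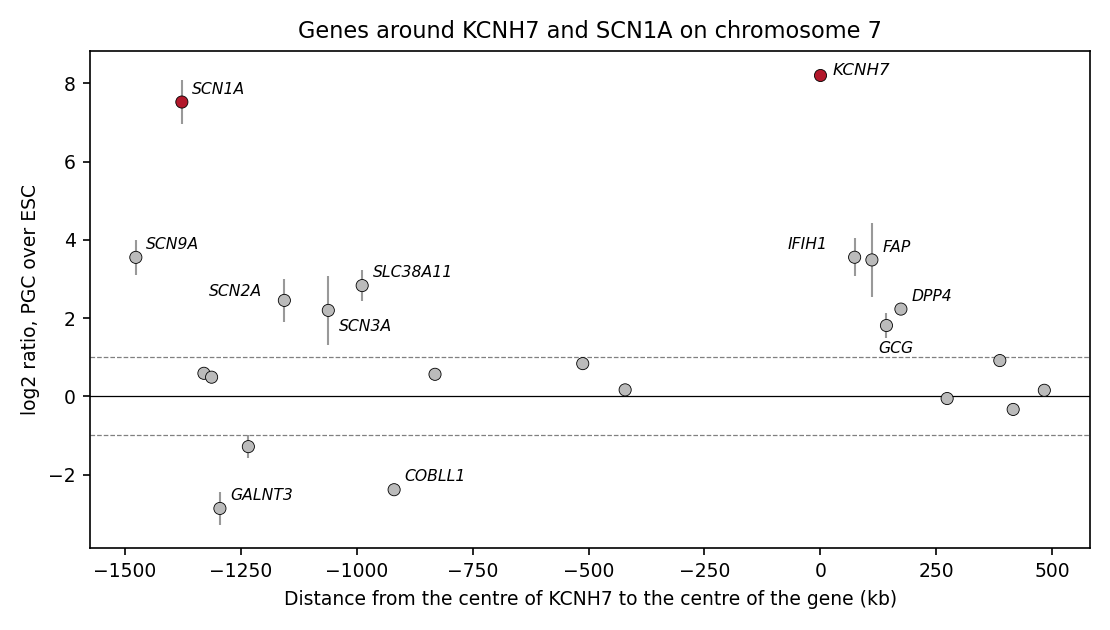
Log2 ratio of PGC over ESC for genes with at least 10 reads in a library around KCNH7 and SCN1A (red) on chromosome 7, by distance between gene centres in kb. Points are the mean of the ratios of both PGC libraries, lines join the ratios, and dashed lines mark 2-fold. From SCN9A to DPP4, 8 of 16 other genes are at least 2-fold higher in both PGC libraries and 2 (GALNT3 and COBLL1) are lower.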

How the data were processed

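Total RNA of PGC and ESC cultures was sequenced as paired-end reads. Per the study's methods, the authors aligned reads with TopHat and Bowtie 2 to Ensembl transcripts of galGal5 and made the deposited counts per gene with featureCounts. Versions, strand setting and the handling of reads that match several genes are not given in the sources used here, so related genes may share reads. The deposited table also holds the exonic length of each gene. From the authors' second table only gene symbols and descriptions were used. Its fold changes, p-values and per-sample values were not used. In all, 4 columns, for replicate 1 of PGC and of ESC in each table, matched no sample label and were not analysed here.

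Genes with at least 10 counts in 1 library (14489) set the TMM factors (edgeR 4.0.16, R 4.3.3), which were 1.13 and 1.02 for PGC replicates 2 and 3 and 0.864 for the ESC library. CPM used these factors, log2 values a prior count of 2, and TPM the deposited length. Alternative size factors were those of DESeq2 1.42.0. The members and all lists were chosen with earlier results of these data known. Lists covered meiosis and recombination, the piRNA pathway, germ granules and RNA regulators, oocyte and spermatogenic genes, receptors, ligands and adhesion, transcription factors and chromatin, and cell type markers. Members with a transporter or channel symbol (SCN1A and KCNH7) were taken by prefix. Symbols were matched in the authors' table or through synonyms of the RefSeq table (GRCg7b). All 11 members are named, and others by these lists, families, neighbourhood or nearness to a threshold. Since the ESC group is 1 library and the same contrast chose the members, no test was run and p-values are not reported. The study describes its replicates as biological. A gene was called higher or lower when at least 2-fold apart from the ESC library in both PGC libraries. Scaling and log2 ratios were tested on simulated data with known changes. These changes were smaller than the PGC over ESC ratios of the 11 members, which depend on the prior count. The simulation therefore does not show how accurate the ratios of the members are. Promoter and protein sequences were not analysed here.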

Additional observations from a re-analysis of the deposited data

How the results depend on the processing

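The number of genes that met the selection followed its thresholds, with 18 at 100 and 5 at 400 PGC reads, 2 with 0 and 25 with up to 10 ESC reads, 7 with thresholds on scaled counts and 28 with unnamed genes included. It was 14 without PGC replicate 2 and rose to 20 when PGC replicate 3 was left out. With total counts 5 genes, in place of 3, were at least 2-fold apart between the PGC libraries, and the median fold over the ESC floor became 118. The median level was 16.8 CPM without PGC replicate 2 and 20.6 CPM without PGC replicate 3, and the median fold 99.7 and 122 in the same order. A floor of 1 read gave 285 and one of 10 reads 28.5. DESeq2 size factors and no filter on low counts moved none of the results recomputed under them beyond the spread, and the number of genes with a higher neighbour was 6 under each scaling. No paired analysis was possible because the groups share only replicate number 2. Motifs in promoters were not run. The single ESC library and counts of 0 to 3 limit every fold given here.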

Other observations

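Markers of other cell types belonged to no comparison above. Of 8 tested genes listed as markers of gonadal somatic cells 4 were at least 2-fold higher in both PGC libraries and 0 lower. Their summed level over the list was 111 and 80.3 CPM in PGCs and 7.04 CPM in ESCs. Most of this was DMRT1, a gene of chromosome Z, with 95.5 and 69.2 CPM in PGCs (2138 and 1442 reads) and 15 reads in ESCs. Bulk RNA does not show which cells expressed it, so the sum is no measure of somatic cells. FSHR had 93 and 63 reads in PGCs and 1 in ESCs, and AMH 16 and 13 in PGCs and 2 in ESCs. A further 4 markers were not called either way, among them SOX9 (66 and 74 reads in PGCs, 34 in ESCs) and NR5A1 (25 and 9 in PGCs, 14 in ESCs). Of 8 tested fibroblast and mesenchyme markers 1 was higher and 4 lower, and COL3A1 had 12768 and 8382 reads in PGCs and 237 in ESCs, whereas PDGFRA had 13 and 18 in PGCs and 742 in ESCs. Of 5 endothelial markers 1 was higher and 3 lower, with VWF at 1151 and 1545 reads in PGCs and 92 in ESCs and CDH5 at 8 and 6 in PGCs and 147 in ESCs. Of 6 endoderm markers 2 were higher and 2 lower, and the summed level was 3.80 and 2.78 CPM in PGCs and 102 CPM in ESCs. Of 10 erythroid markers 3 were matched, both with enough reads were lower, and ALAS2 had 358 and 370 reads in PGCs and 836 in ESCs. The part of these cell types in the values of the 11 genes was not tested.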
